A study of Mus musculus with 24 samples.

Results

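The genes of cholesterol synthesis and sterol regulation were followed in single cortical collecting ducts (CCDs), the tubule segment of the renal cortex in which principal cells take up water and sodium and intercalated cells handle acid and base. The set holds 32 of the 53819 gene symbols in the deposited table, listed by name for their place in the pathway, with earlier results of these data known. All 32 were found, and each had 1 row. MUT mice carry beta-catenin with alanine in place of Thr 551 and Ser 552 per the labels, whereas the legend supplied with the values mentions Ser 552 alone. The 4 MUT mice and the 4 WT mice were males on C57BL/6 from 1 supplier, 10 weeks old, and 3 microdissected tubules were sequenced from each, which gave 12 MUT and 12 WT libraries. A treatment field reads vehicle in both genotypes while the protocol describes no treatment, so no agent separates the groups. The labels do not say in which cells the alleles are carried, whether the mice were littermates, or on which days they were dissected.

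Cholesterol is built from acetyl-CoA. The mevalonate arm makes isoprenoid units, and the sterol arm joins them into squalene, closes the rings and trims the product to cholesterol. When sterols are low, SCAP carries the membrane-bound factor SREBP-2 to the Golgi, where it is cut and released to switch on the enzyme genes. When sterols are high, INSIG proteins hold SCAP in the endoplasmic reticulum. Oxysterols also activate the LXR receptors, whose targets move cholesterol out of the cell. Much of this control acts on protein processing, which transcript levels do not show.

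Transcript levels are given as TPM, which divide each count by the length of the gene and by the size of the library, so levels of different genes can be set side by side. The mouse was the replicate. A level is the mean of 3 tubules of a mouse, means ± SD are over 4 mice, and differences are MUT minus WT on the log2(TPM + 1) scale with the limma standard error (SE). TPM keeps no sequencing depth, so depth is unknown. The tubules had from 13572 to 16091 genes at 1 TPM or more. Summed markers of principal cells were at 32629 ± 6924 TPM in MUT and 33306 ± 10224 TPM in WT mice, and those of intercalated cells at 7729 ± 343 TPM in MUT and 7585 ± 351 TPM in WT mice (SD, n = 4 each), so the collecting duct label was met in both genotypes. Neighbouring segments and blood differed more between libraries. Proximal tubule markers summed to between 31.6 and 1469 TPM over MUT tubules and between 35.9 and 6754 TPM over WT tubules. Thick ascending limb markers summed to 12.0 to 407 TPM in MUT and 10.7 to 4715 TPM in WT tubules, and erythrocyte markers to 0.62 to 203 TPM in MUT and 1.48 to 24918 TPM in WT tubules. In 7 libraries, 2 MUT and 5 WT, at least 1 of these sums passed 900 TPM, and the log2 differences that move by over 1.5 times without them are given both ways in the text or among the limits.

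The whole pathway was transcribed in these tubules in both genotypes. All 32 genes were above 0 TPM in all 24 tubules, and 25 averaged 10 TPM or more. Their median level was 24.7 TPM, against 15.6 TPM over the 15013 genes tested. The highest was Nr1h2, which encodes LXR-beta, at 127 ± 5.79 TPM in MUT and 135 ± 2.38 TPM in WT mice. Hmgcs1, the HMG-CoA synthase of the mevalonate arm, and Insig2, a retention protein of the SREBP system, followed at 94.3 and 93.2 TPM over all mice. The lowest were Abcg1, a cholesterol exporter, and Idi1, the isopentenyl diphosphate isomerase. Abcg1 was at 2.08 ± 0.68 TPM in MUT and 2.95 ± 0.66 TPM in WT mice. Idi1 was at 4.27 ± 0.37 TPM in MUT and 3.55 ± 0.55 TPM in WT mice (SD, n = 4 each). The levels of most of the genes were steady from mouse to mouse. The median SD of log2(TPM + 1) between mice of a genotype was 0.12 for the 32 genes and 0.16 over all genes tested. Between tubules of a mouse it was 0.13 for the 32 genes and 0.19 over all genes tested. The SD between mice reached 0.28 for Nr1h3 and 0.45 for Dhcr7, and the genes compared were not matched for level.

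**Figure D1:**
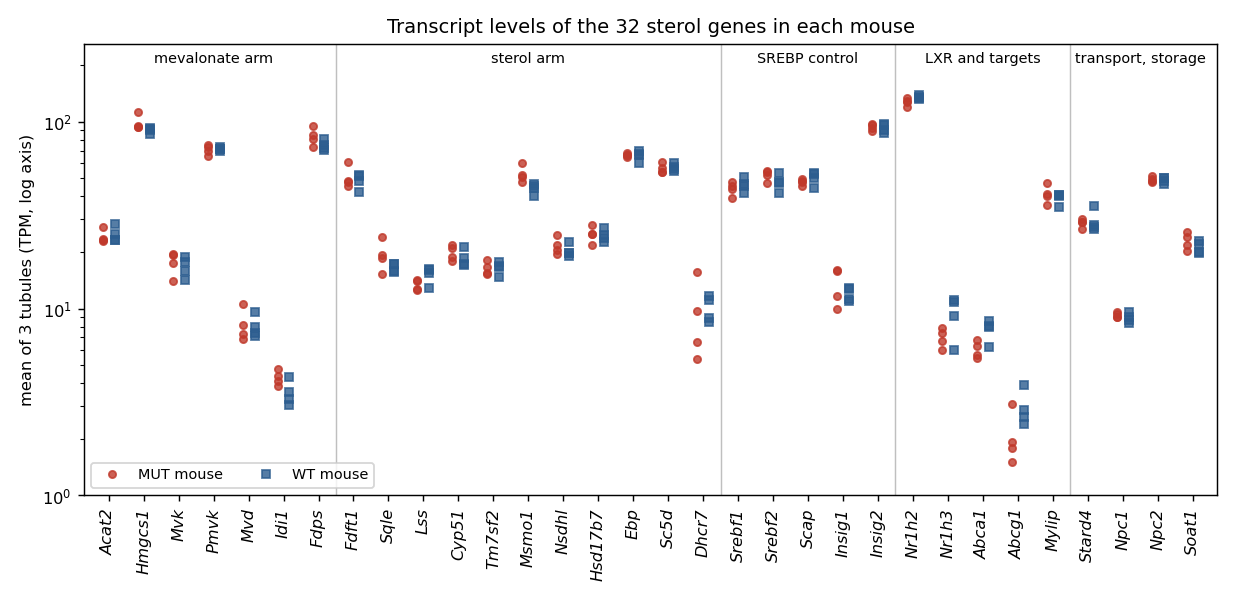
Mean level of each of the 32 genes in each mouse (TPM on a log axis, 3 tubules per point), grouped by role, with 4 MUT mice as circles and 4 WT mice as squares. The genotypes overlap for all but Hmgcs1 and Msmo1, whose 4 MUT mice lie above the 4 WT mice, while levels run from 2.5 TPM for Abcg1 to 131 TPM for Nr1h2.

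No sterol gene passed the threshold between genotypes. By limma with Benjamini-Hochberg adjustment over all genes, 0 of the 32 had an adjusted p under 0.05, and 0 of all 15013 genes did (0%). An unadjusted p under 0.05 was reached by 2 of 32 members, Msmo1 (higher in MUT) and Abca1 (lower), which is 6.25% against 4.6% of all genes. Of the 32, 19 were higher and 13 lower in MUT mice, 59.4% higher against 54.3% of all genes. The median log2 difference was 0.02 for the members and 0.01 over all genes. Its median size, sign left aside, was 0.08 in both. The smallest adjusted p of a member was 0.98. The intervals were narrow for most of the pathway: for 28 of 32 genes the 95% interval of the log2 difference lay wholly between -0.5 and 0.5. It reached beyond that for Dhcr7, Nr1h3, Abca1 and Abcg1. In bulk tubules, fewer cells of a type and less RNA per cell cannot be told apart.

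**Figure D2:**
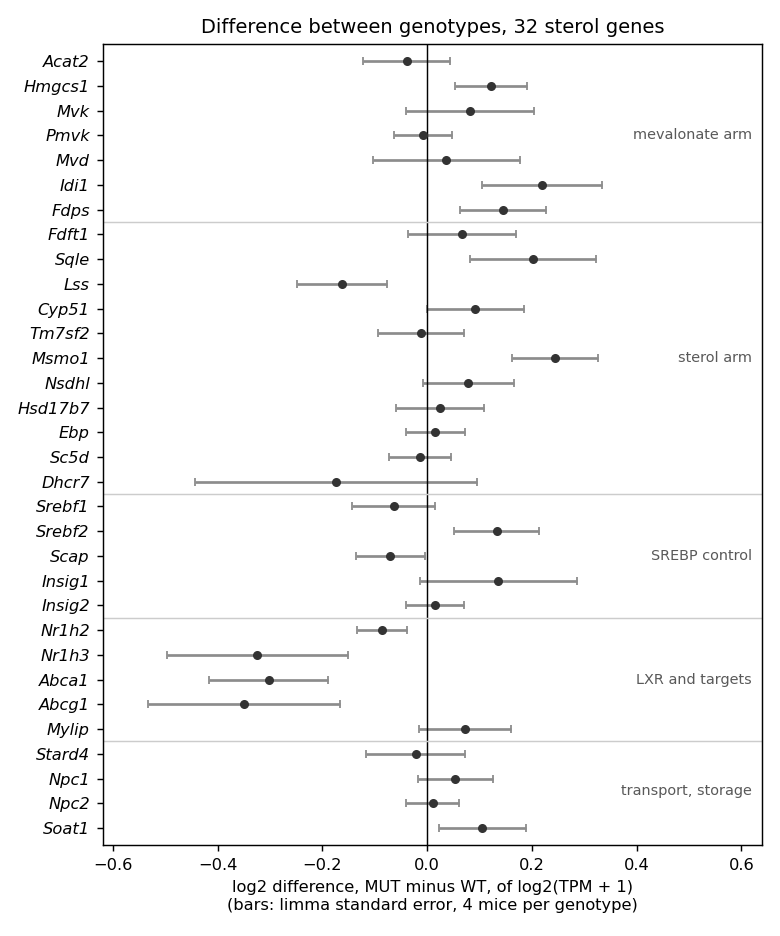
Log2 difference of each gene, MUT minus WT, on the log2(TPM + 1) scale (points) with the limma standard error (bars, 4 mice per genotype). Most points lie within 0.2 of 0, Msmo1 stands highest at 0.24, and Nr1h3, Abca1 and Abcg1 lie at or below -0.30. None had an adjusted p under 0.05.

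In the mevalonate arm 5 of 7 enzymes were higher and 2 lower in MUT mice, with a median log2 difference of 0.08. Hmgcs1, whose product condenses acetyl units into HMG-CoA, was at 93.2, 93.9, 94.2 and 112 TPM in the 4 MUT mice and at 92.6, 86.3, 91.5 and 90.2 TPM in the 4 WT mice. The lowest MUT mouse stood just above the highest WT mouse, and MUT mouse 4 alone was far above the rest. The log2 difference was 0.12 (SE 0.07, limma adjusted p = 0.98), and it was 0.06 without MUT mouse 4. Idi1, which interconverts the isoprenoid building blocks, was at 3.87, 4.36, 4.10 and 4.75 TPM in MUT mice and at 3.56, 3.28, 4.32 and 3.04 TPM in WT mice. WT mouse 3 overlapped the MUT mice and the other WT mice lay below them. Its log2 difference was 0.22 (SE 0.12, limma adjusted p = 0.98) and 0.11 without the 7 libraries with high markers of other cells. Fdps, the farnesyl diphosphate synthase, had 83.1 ± 9.04 TPM in MUT and 74.9 ± 4.54 TPM in WT mice (SD, n = 4 each), a log2 difference of 0.14 that was 0.08 without MUT mouse 4. Mvk and Pmvk, the kinases that phosphorylate mevalonate, Mvd, the decarboxylase after them, and Acat2, the thiolase that opens the arm, had log2 differences between -0.04 and 0.08. Without the 7 libraries the value of Mvd was 0.20, against 0.04 with all libraries.

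The sterol arm had 7 of 11 enzymes higher and 4 lower, with a median log2 difference of 0.02. After median-ratio scaling Ebp also turned lower. Sqle, the squalene epoxidase that catalyses the first oxygen-dependent step, was at 19.3, 18.6, 15.4 and 24.3 TPM in MUT mice and at 17.3, 17.2, 15.6 and 16.0 TPM in WT mice. Of the MUT mice 3 lay above every WT mouse and mouse 3 lay below them all. The log2 difference was 0.20 (SE 0.12, limma adjusted p = 0.98), and it was 0.09 without MUT mouse 4 and 0.30 without MUT mouse 3. Msmo1, the sterol C4-methyl oxidase, was at 50.3, 51.6, 47.4 and 60.4 TPM in MUT mice and at 45.3, 46.5, 44.2 and 39.9 TPM in WT mice. All 4 MUT mice stood above all 4 WT mice. The log2 difference was 0.24 (SE 0.08, 95% interval 0.06 to 0.43), with a limma unadjusted p of 0.0154 and an adjusted p of 0.98. Groups that did not overlap were found in 2 of 32 members, Hmgcs1 and Msmo1, 6.25% against 3.02% of all genes, and both had the MUT mice above, as did 1.94% of all genes. Without MUT mouse 4 the log2 difference of Msmo1 was 0.18, and without the 7 libraries with high markers of other cells 0.33.

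Lss went the other way. This cyclase, which folds epoxidised squalene into lanosterol, was at 14.2, 12.7, 12.5 and 14.1 TPM in MUT mice and at 12.9, 16.3, 16.0 and 15.5 TPM in WT mice. WT mouse 1 lay among the MUT mice and the other WT mice above them, for a log2 difference of -0.16 (SE 0.09, limma adjusted p = 0.98). Ebp, the sterol isomerase and the most abundant enzyme of this arm, was at 64.8, 66.0, 66.2 and 68.2 TPM in MUT mice and at 65.9, 60.2, 70.0 and 67.4 TPM in WT mice. The MUT values lay inside the range of the WT values, and the log2 difference was 0.02 (SE 0.06). Dhcr7, a reductase that acts on a double bond of the B ring, was the gene that varied most between mice. It is named for that after its values were seen. Dhcr7 was at 15.7, 6.60, 9.65 and 5.40 TPM in MUT mice and at 11.7, 8.85, 11.1 and 8.49 TPM in WT mice. MUT mice thus held both the highest and the lowest value. Its SD between mice was 0.45 on the log2 scale, against a median of 0.12 for the members, and its tubules ran from 4.19 to 16.4 TPM. The log2 difference was -0.17 (SE 0.27), and -0.02 without the 7 libraries with high markers of other cells. The other sterol arm enzymes, Fdft1, Cyp51, Tm7sf2, Nsdhl, Hsd17b7 and Sc5d, had log2 differences between -0.01 and 0.09. Without those libraries Cyp51 was at 0.14, Nsdhl at 0.13 and Fdft1 at 0.02, against 0.09, 0.08 and 0.07 with all of them.

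The 18 enzymes together summed to 656, 647, 606 and 720 TPM in MUT mice and to 627, 611, 649 and 617 TPM in WT mice. The sums averaged 657 ± 46.9 TPM in MUT and 626 ± 16.6 TPM in WT mice (SD, n = 4 each), and the genotypes overlapped. MUT mouse 4 had the highest level of the 8 mice in 9 of 18 enzymes but the lowest in Dhcr7, and MUT mouse 3 had the lowest level in 6. Summed proximal tubule markers were at 58.8, 207, 133 and 857 TPM in the 4 MUT mice and at 256, 123, 3001 and 948 TPM in the 4 WT mice. MUT mouse 4 was thus the highest of the MUT mice for these markers and for the enzymes, and WT mouse 3 the highest of the WT mice for both. Across genotypes, WT mice 3 and 4 had more of the markers than MUT mouse 4 and lower enzyme sums. The part of other cells in the enzyme levels was not tested.

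The genes of SREBP control differed little between genotypes. Srebf2, which encodes the SREBP of cholesterol synthesis, was at 54.5, 53.8, 47.2 and 51.9 TPM in MUT mice and at 47.7, 53.1, 41.5 and 47.1 TPM in WT mice. Srebf1, whose products favour fatty acid synthesis genes, was at 47.3, 43.5, 39.0 and 45.4 TPM in MUT mice and at 46.2, 50.5, 41.3 and 45.1 TPM in WT mice. Both sets overlapped, with log2 differences of 0.13 (SE 0.08) for Srebf2 and -0.06 (SE 0.08) for Srebf1, and a limma adjusted p of 0.98 for Srebf2 and 0.991 for Srebf1. With single mice left out the value for Srebf2 ran from 0.07 (without WT mouse 3) to 0.19 (without WT mouse 2), and that for Srebf1 from -0.11 (without WT mouse 3) to -0.01 (without MUT mouse 3). Mouse 3 was the lowest of its genotype for both genes in both genotypes.

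The ratio of the pair varied less between mice than either gene. Srebf2 over Srebf1 was 1.15, 1.24, 1.21 and 1.14 in MUT mice and 1.03, 1.05, 1.01 and 1.05 in WT mice. All 4 MUT mice stood above all 4 WT mice, at 1.19 ± 0.04 in MUT and 1.03 ± 0.02 in WT mice (SD, n = 4 each), a log2 difference of 0.20. The two-sided exact permutation p over 70 arrangements was 0.029, the smallest that 4 against 4 mice can give. It was 0.171 after adjustment over the 6 ratios computed, which were chosen with the values of the genes known. The other ratios were Insig2 over Insig1, Nr1h2 over Nr1h3, Npc2 over Npc1, Abca1 over Abcg1 and Fdps over Idi1. Their two-sided exact permutation p, before adjustment, ran from 0.229 to 0.657. With each mouse left out the log2 difference of Srebf2 over Srebf1 was 0.18 to 0.22. Its sign could not turn there, because every MUT mouse stood above every WT mouse. Without the 7 libraries with high markers of other cells the difference was 0.16 and 3 of 4 MUT mice stood above all WT mice. Over single tubules the genotypes overlapped, from 0.96 to 1.34 with a median of 1.22 in MUT and from 0.87 to 1.14 with a median of 1.08 in WT.

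The partners that hold or carry the SREBPs showed no such pattern. Scap, the escort protein, was at 48.0, 49.1, 47.7 and 45.2 TPM in MUT mice and at 50.0, 52.3, 44.4 and 53.2 TPM in WT mice. Insig1, which is itself an SREBP target, was at 16.1, 11.7, 9.90 and 15.9 TPM in MUT mice and at 12.8, 11.0, 12.7 and 11.2 TPM in WT mice. MUT mice 1 and 4 lay above every WT mouse and MUT mouse 3 below them. Insig2, its more abundant paralogue here, was at 96.1, 97.5, 92.2 and 88.8 TPM in MUT mice and at 97.4, 95.8, 90.5 and 87.3 TPM in WT mice. The log2 differences were -0.07 (SE 0.07), 0.14 (SE 0.15) and 0.01 (SE 0.06), with limma adjusted p of at least 0.98, and for Insig2 the sign turned after median-ratio scaling. The value for Insig1 was 0.04 without MUT mouse 1 and 0.26 without MUT mouse 3, and that for Scap was -0.12 without WT mouse 3 and -0.04 without WT mouse 4. Insig2 stood above Insig1 in every tubule, by a ratio of 7.31 ± 1.81 in MUT and 7.80 ± 0.65 in WT mice (SD, n = 4 each, two-sided exact permutation p = 0.514, 0.617 over the 6 ratios).

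**Figure D3:**
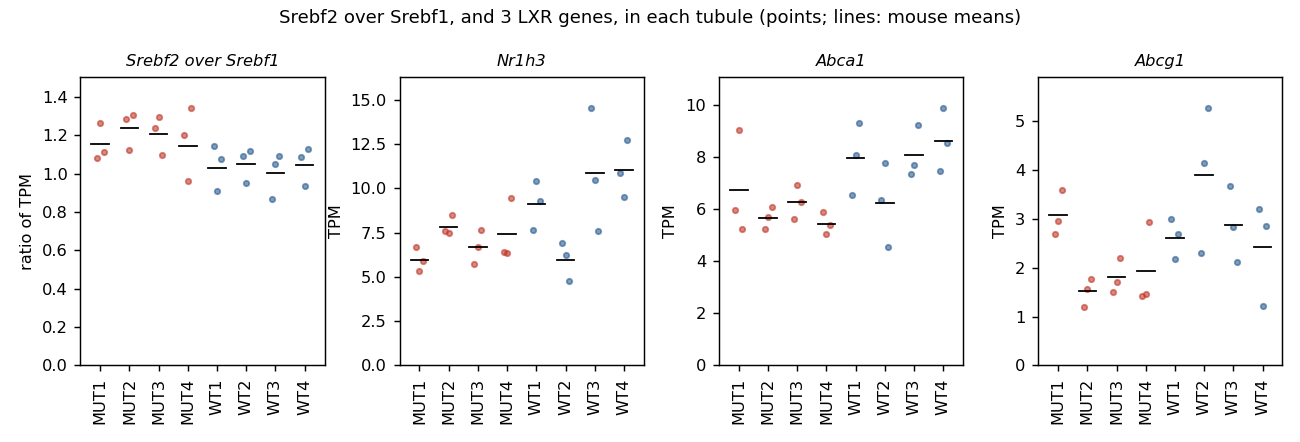
Ratio of Srebf2 to Srebf1 (left panel, ratio of TPM) and the levels of Nr1h3, Abca1 and Abcg1 (TPM) in each of 24 tubules (points), with the value of each mouse as a line, MUT mice left of WT mice. The lines of the ratio lie between 1.14 and 1.24 in MUT and between 1.01 and 1.05 in WT mice, and for the 3 LXR genes the genotypes overlap.

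The 3 lowest log2 differences of the set were those of the LXR genes Abcg1, Nr1h3 and Abca1. Of the 5 LXR genes 4 were lower in MUT mice, with a median of -0.30, while 54.3% of all genes tested were higher. Abca1, which exports cholesterol to apolipoprotein acceptors, was at 6.75, 5.67, 6.27 and 5.44 TPM in MUT mice and at 7.96, 6.22, 8.08 and 8.62 TPM in WT mice. WT mouse 2 lay among the MUT mice and the other WT mice above them. The log2 difference was -0.30 (SE 0.11, 95% interval -0.56 to -0.05), with a limma unadjusted p of 0.0255 and an adjusted p of 0.98. Abcg1, the exporter that acts towards high-density lipoprotein, was at 3.07, 1.51, 1.80 and 1.94 TPM in MUT mice and at 2.61, 3.89, 2.87 and 2.42 TPM in WT mice. Of the MUT mice 3 lay below every WT mouse and mouse 1 among them, for a log2 difference of -0.35 (SE 0.18, limma adjusted p = 0.98). Nr1h3, which encodes LXR-alpha and is named beside them after its values were seen, was at 5.98, 7.85, 6.70 and 7.42 TPM in MUT mice and at 9.13, 5.97, 10.9 and 11.0 TPM in WT mice. WT mouse 2 was the lowest of all 8 mice and the other WT mice lay above every MUT mouse, for a log2 difference of -0.32 (SE 0.17, limma adjusted p = 0.98) and of -0.50 without WT mouse 2.

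LXR-beta was the abundant receptor of the pair. Nr1h2 was at 134, 128, 120 and 127 TPM in MUT mice and at 134, 138, 132 and 135 TPM in WT mice, a log2 difference of -0.09 (SE 0.05), and stood above Nr1h3 by a ratio of 18.4 ± 2.74 in MUT and 15.6 ± 5.16 in WT mice (SD, n = 4 each). Mylip, an LXR target whose product marks lipoprotein receptors for degradation, had a difference of the other sign, at 41.0 ± 4.65 TPM in MUT and 39.0 ± 2.77 TPM in WT mice (log2 difference 0.07, SE 0.09, and 0.005 without MUT mouse 1). Macrophages also express Nr1h3, Abca1 and Abcg1. The 10 macrophage markers summed to 379, 161, 290 and 624 TPM in MUT mice and to 657, 134, 294 and 358 TPM in WT mice, and 9 of 10 were above 0 in every tubule. WT mouse 2 had the lowest macrophage sum and the lowest Nr1h3. It also had the lowest Abca1 of the WT mice, at 6.22 TPM, but the highest Abcg1 of all mice, at 3.89 TPM. MUT mouse 2, with the next lowest macrophage sum, had the highest Nr1h3 of the MUT mice and the lowest Abcg1 of all mice, at 1.51 TPM. The lowest Nr1h3 levels, in MUT mouse 1 and WT mouse 2, went with the highest principal cell sums, 42752 TPM in MUT mouse 1 and 48191 TPM in WT mouse 2. Proximal tubule markers summed to 314 ± 367 TPM in MUT and 1082 ± 1329 TPM in WT mice. These sums were lowest in MUT mouse 1 (58.8 TPM) and WT mouse 2 (123 TPM). WT mice 3 and 4, with the highest proximal tubule sums (3001 and 948 TPM), had the highest Nr1h3 levels. MUT mouse 4, with 857 TPM, had less Nr1h3 than MUT mouse 2 and WT mouse 1, with 207 and 256 TPM. The part of these cell types in the differences was not tested. Without the 7 libraries with high markers of other cells the log2 difference was -0.44 for Abca1, -0.17 for Abcg1 and -0.24 for Nr1h3.

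The genes that move and store cholesterol inside the cell had the smallest median size of log2 difference among the 5 roles, 0.04, with values from -0.02 to 0.11 and 3 of 4 higher. After median-ratio scaling Npc2 turned lower. Soat1, which esterifies cholesterol for storage, was at 21.8, 20.3, 25.6 and 24.3 TPM in MUT mice and at 22.9, 20.0, 22.1 and 19.9 TPM in WT mice, a log2 difference of 0.11 (SE 0.08), and of 0.06 without MUT mouse 3. Npc1 and Npc2 hand cholesterol out of the lysosome, the first as a membrane protein and the second as a soluble carrier. Npc1 was at 9.02, 9.57, 9.00 and 9.34 TPM in MUT mice and at 8.98, 8.39, 8.64 and 9.58 TPM in WT mice. Npc2 was at 48.0, 50.9, 47.3 and 49.1 TPM in MUT mice and at 50.0, 46.1, 49.9 and 48.0 TPM in WT mice. The values overlapped for all 3 genes. The log2 difference of Npc1 was 0.05 (SE 0.07), and 0.12 without the 7 libraries with high markers of other cells. Npc2 was the steadiest of the 32, with an SD between mice of 0.05 on the log2 scale, and Stard4, a cytosolic sterol carrier, averaged 28.8 ± 1.49 TPM in MUT and 29.3 ± 4.16 TPM in WT mice (SD, n = 4 each).

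Within mice, a few of the SREBP-2 targets moved together from tubule to tubule. After the mean of each mouse was taken out, Hmgcs1, Sqle, Msmo1 and Insig1 correlated pairwise over 24 tubules with Pearson's r from 0.53 to 0.75 and a median of 0.59 over 6 pairs, and with Spearman's rho from 0.52 to 0.83. Sqle and Msmo1, which act in the same arm, had the highest r of the 6. In 13 of 24 tubules all 4 genes lay on the same side of their mouse mean. The 4 genes were picked after their values were seen, and tubules of a mouse share an animal and all genes of a tubule share a library, so these values are a description. The 153 pairs of the 18 enzymes had a median r of 0.02 and ran from -0.59 to 0.75, with 5.23% at 0.5 or more. All pairs of genes tested had a median of 0.02 with 4.15%. Ebp, another enzyme and also named after its values were seen, correlated with the 4 genes at -0.59 to -0.41. Its r with Npc2 was 0.81, above all 6 values of the 4 genes. Srebf2 itself correlated with the 4 at 0.06 to 0.32. With genotype means taken out in place of mouse means the 6 values of r ran from 0.54 to 0.81.

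**Figure D4:**
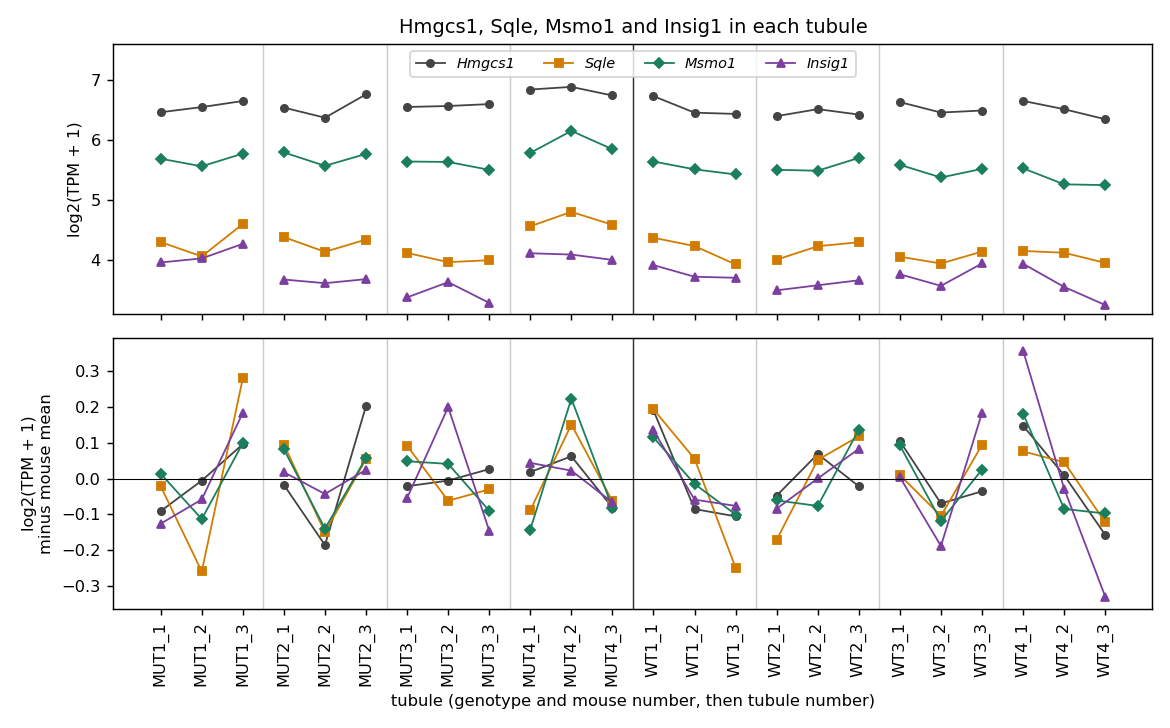
Levels of Hmgcs1, Sqle, Msmo1 and Insig1 in each tubule as log2(TPM + 1) (upper panel) and the same after the mean of each mouse was taken out (lower panel), with the 4 MUT mice left of the dark line and the 4 WT mice right of it. In 13 of 24 tubules all 4 genes lie on the same side of their mouse mean, and pairwise r was 0.53 to 0.75. The 4 genes were picked after their values were seen.

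The promoters of Hmgcs1, Msmo1 and Insig1 are shown because these genes belong to that group and have an entry in the promoter table. The letters are the 250 bases before the start of the gene, on its own strand, from RefSeq on GRCm38.p6. Capitals mark the sterol element TCACNCCAC and the CCAAT box, which appears as ATTGG where it lies on the other strand.
Hmgcs1 (chr13:119690101-119690350, plus strand): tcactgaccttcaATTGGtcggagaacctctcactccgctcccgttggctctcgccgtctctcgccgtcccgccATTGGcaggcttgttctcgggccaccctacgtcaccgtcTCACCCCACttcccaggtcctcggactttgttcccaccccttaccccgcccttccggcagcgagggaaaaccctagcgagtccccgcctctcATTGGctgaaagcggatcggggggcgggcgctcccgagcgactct
Msmo1 (chr8:64733579-64733828, minus strand): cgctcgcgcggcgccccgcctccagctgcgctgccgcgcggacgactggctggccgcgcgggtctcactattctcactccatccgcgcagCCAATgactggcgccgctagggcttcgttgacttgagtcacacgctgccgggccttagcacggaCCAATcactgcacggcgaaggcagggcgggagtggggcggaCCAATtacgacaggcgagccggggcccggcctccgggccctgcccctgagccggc
Insig1 (chr5:28071162-28071411, plus strand): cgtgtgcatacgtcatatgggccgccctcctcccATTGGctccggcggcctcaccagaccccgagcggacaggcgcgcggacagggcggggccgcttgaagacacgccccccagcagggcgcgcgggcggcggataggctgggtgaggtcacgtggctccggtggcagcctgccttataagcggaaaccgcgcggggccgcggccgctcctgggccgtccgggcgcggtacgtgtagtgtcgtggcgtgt
Hmgcs1 holds the sterol element as TCACCCCAC, whose first base lies 137 bases before the start, and 3 CCAAT boxes. Msmo1 holds 3 CCAAT boxes, and Insig1 holds 1, with the E-box CACGTG 101 bases before its start.

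Promoter windows were found for 26 of the 32 genes, and 4 motifs were searched on both strands in the 250 bases. TCACNCCAC was in 1 of 26 (3.85%), and in 1.05% of the 32851 windows of the table. CCAAT was in 21 of 26 (80.8%) and in 33.8% of all windows. The GC box GGGCGG was in 22 of 26 (84.6%) and in 32.7% of all, and CACGTG in 6 of 26 (23.1%) and in 6.02% of all. The motifs do not overlap one another in the windows shown. For the 26 genes a match in any window of the gene was counted, while the share over the table is of single windows, so the units differ. A match describes letters only, and all windows of the table, from genes of any level in the CCD, are in the comparison.

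Other genes around the pathway were read from 5 lists, and 0 of their 48 tested genes had a limma adjusted p under 0.05, while 1 had an unadjusted p under 0.05, which is 2.08% against 4.6% of all genes. Of the 48, 21 were higher in MUT mice, 43.8% against 54.3% of all genes. Of 9 genes for SREBP cleavage and export from the endoplasmic reticulum, 7 were higher and 2 lower in MUT mice, with the smallest p for the vesicle GTPase Sar1b (log2 difference 0.09, SE 0.05) and the coat protein Sec23a (-0.12, SE 0.06). Of 8 genes for sterol-regulated degradation in the endoplasmic reticulum, 4 were higher and 4 lower, and the ubiquitin ligase Rnf139 (0.12, SE 0.07) and Erlin2 (0.06, SE 0.06) had the smallest p. Of 11 genes for other isoprenoid products, 2 were higher and 9 lower, with Pdss1 of coenzyme Q synthesis (0.28, SE 0.15) and the geranylgeranyl transferase subunit Rabggtb (-0.10, SE 0.06) first. Of 9 tested genes for fatty acid synthesis, 6 were higher and 3 lower, led by Elovl6 (0.15, SE 0.09) and Scd2 (0.14, SE 0.10), while Scd1 averaged under 1 TPM and was not tested. Of 11 genes for other cholesterol transport, 2 were higher and 9 lower. Gramd1a, a sterol transporter at contacts with the plasma membrane, had a log2 difference of -0.14 (SE 0.06) and a limma unadjusted p of 0.0362, and Gramd1c, of the same family, one of 0.13 (SE 0.07). These counts have no test of their own.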

How the data were processed

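The deposited values are TPM for 55416 genes in 24 libraries, 1 per tubule. A Zymo kit was used for extraction and a SMART-Seq V4 kit for cDNA, per the labels' protocols. STAR, RSEM 1.3.3 and GRCm39 appear in the submitters' processing notes, and the annotation release is not given in the sources used here. TPM totals were equal in every library, so no depth remains. TPM were taken as log2(TPM + 1), averaged over the 3 tubules of each mouse, kept at a mean of at least 1 TPM (15013 genes), and compared between 4 MUT and 4 WT mice with limma (version 3.58.1, under R version 4.3.3), using moderated variances and a mean-variance trend. Benjamini-Hochberg adjustment over all genes and a threshold of 0.05 were used. The fit was tested on simulated data. Levels, ratios and correlations were computed with Python 3.11.15 and pandas 2.3.3. The members, the lists around them and their markers were chosen with earlier results of these data known. By rule, values in every mouse are given for Srebf1, Srebf2, Insig1, Hmgcs1 and Sqle and, per role, for the 2 members with the smallest p and the most abundant one. Alternatives were other pseudocounts (0.1 and 5), filters (none and 10 TPM) and scaling, averaging tubules as TPM, the mouse as a random effect, a block of mouse numbers and leaving out each mouse. Leaving out 7 libraries with over 900 TPM of thick ascending limb, proximal tubule or erythrocyte markers, and all alternatives for the ratio of Srebf2 to Srebf1, were added after seeing the data. The labels name separate mice. The authors' mean, ratio and p columns were not used.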

Additional observations from a re-analysis of the deposited data

Results flagged for a closer look

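In 5 of 66 groups of 4 mice (each of the 32 genes in each genotype, and the summed enzymes), 1 mouse stood far from the other mice of its genotype, by a test that chance meets in about 1 in 20 groups. Acat2 was at 27.4 TPM in MUT mouse 4 and between 22.9 and 23.6 TPM in the other MUT mice, and Hmgcs1 was at 112 TPM in the same mouse and between 93.2 and 94.2 TPM in the others. Nsdhl, a sterol dehydrogenase, was at 22.8 TPM in WT mouse 3 and between 19.2 and 19.8 TPM in the other WT mice. Mylip was at 34.9 TPM in WT mouse 3 and between 39.9 and 40.6 TPM in the others. Stard4 was at 35.5 TPM in WT mouse 1 and between 26.5 and 27.9 TPM in the others.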

How the results depend on the processing

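No member had an adjusted p under 0.05 under any of the 17 alternatives, and between 1 and 4 members had an unadjusted p under 0.05. Among all genes limma called 1 with the mouse as a random effect (Anp32a), and between 0 and 1 with each mouse left out (Gm22107 without MUT mouse 4). Both were named after their values were seen, and the cause was not tested. Msmo1 kept an unadjusted p under 0.05 in 17 of 17 alternatives (log2 difference 0.18 to 0.33, adjusted p 0.551 to 1) and Abca1 in 11 of 16 (-0.44 to -0.20, adjusted p 0.566 to 1). The direction held in every alternative run for 20 of 32 genes. Median-ratio scaling turned Ebp (-0.0086), Insig2 (-0.0095) and Npc2 (-0.014), which left 16 of 32 genes higher in MUT. Without the 7 libraries with high markers of other cells, Ebp (-0.074), Npc2 (-0.028), Sc5d (0.027) and Stard4 (0.031) turned. Members near 0 moved by over 1.5 times there without turning, to 0.05 for Insig2, 0.0089 for Hsd17b7, -0.015 for Pmvk and -0.0057 for Tm7sf2. With each mouse left out in turn the log2 difference ran from -0.093 to 0.019 for Acat2, from -0.44 to 0.025 for Dhcr7, from -0.025 to 0.047 for Ebp, from -0.026 to 0.12 for Fdft1, from -0.028 to 0.083 for Hsd17b7, from -0.014 to 0.042 for Insig2, from -0.082 to 0.12 for Mvd, from -0.013 to 0.025 for Npc2, from -0.036 to 0.030 for Pmvk, from -0.054 to 0.012 for Sc5d, from -0.068 to 0.069 for Stard4 and from -0.064 to 0.022 for Tm7sf2. The cause of these turns was not tested. Leaving out WT mouse 2 gave 1186 genes with an unadjusted p under 0.05, against 691 with all mice. The labels number the mice 1 to 4 in both genotypes. Deviations of same-numbered mice correlated between -0.04 and 0.02, and those of differently numbered mice between -0.30 and 0.37. With 4 mice per genotype these values cannot decide whether the numbers pair the mice. With the mouse number as a replicate block limma called 0 members and 0 genes, 483 genes and 2 members had an unadjusted p under 0.05, and the log2 difference of Msmo1 was 0.24 (adjusted p = 1.00). With 4 mice per genotype the median half-width of the 95% interval was 0.19 on the log2 scale, so differences within it were mostly not detectable. That interval is not adjusted over genes, and larger differences were not called either. Msmo1 at 0.24 and Abca1 at -0.30 both had a limma adjusted p of 0.98. Depth is unknown.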
